A study of Mus musculus with 2 samples.

Results

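Natriuretic peptide positive cardiomyocytes were taken as the cardiomyocytes of 2 mouse heart libraries that held at least 2 unique molecular identifiers (UMIs, the tags that count single mRNA molecules) of Nppa and Nppb together. A barcode counted as a cardiomyocyte when it had at least 200 detected genes, when Ryr2, the calcium release channel, and Myh6, the adult cardiac myosin heavy chain, made up at least 1% of its UMIs, and when it held at most 1 UMI of the macrophage genes F13a1, Mrc1 and Adgre1 and at most 4 UMIs of the fibroblast genes Col1a2, Col3a1 and Pdgfra. Of 19867 barcodes, 5068 were cardiomyocytes by this rule, and 223 of these were peptide positive. The study describes dissociated hearts of C57BL/6 mice, profiled by droplet single-cell RNA sequencing, with 1 library per condition. In the Sham library the mice had been operated on without constriction of the aorta, although the series text calls the controls uninjured. In the TAC library transverse aortic constriction, which narrows the aorta and overloads the left ventricle, had been done at 8 weeks of age and had lasted 6 weeks. Each library pooled 3 to 5 hearts of animals that cannot be told apart in the data. With 1 library per group there was no replicate, so no difference was tested, and all intervals cover counting error only.

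Nppa and Nppb encode the precursors of atrial and brain natriuretic peptide, hormones that lower blood volume and pressure. Atrial cardiomyocytes store Nppa protein in granules, while the adult ventricle makes little of either peptide at rest and re-expresses both as part of the fetal gene programme when its wall is stretched. The peptides are cut from their precursors by the proteases corin and furin, and signal through receptors that make cyclic GMP, which activates the kinase encoded by Prkg1.

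Nppb and Nppa are neighbours on mouse chromosome 4, and the 250 bases before the start site of each gene are shown because cardiac GATA factors and the stretch-related TEAD and SRF factors are known to act on promoters of this kind. The windows of Ankrd1 and Acta1 are shown beside them because these were the stress genes with the highest ratios in the positive cells. All 4 come from RefSeq with the build GRCm38.p6 and read 5′ to 3′ on the strand of the gene. The GENCODE annotation, from which gene positions were taken, places the start of Nppb at 147985788 and that of Ankrd1 at 36120099. By that annotation the window of Nppb lies partly, and that of Ankrd1 wholly, inside the gene. Capitals mark GATA motifs (GATAA), M-CAT motifs of TEAD factors (GGAATG) and the CArG box of SRF, each looked for on both strands. The windows are chr4:147985650-147985899 (+) for Nppb, chr4:148000472-148000721 (+) for Nppa, chr19:36119845-36120094 (-) for Ankrd1 and chr8:123894776-123895025 (-) for Acta1.
Nppb: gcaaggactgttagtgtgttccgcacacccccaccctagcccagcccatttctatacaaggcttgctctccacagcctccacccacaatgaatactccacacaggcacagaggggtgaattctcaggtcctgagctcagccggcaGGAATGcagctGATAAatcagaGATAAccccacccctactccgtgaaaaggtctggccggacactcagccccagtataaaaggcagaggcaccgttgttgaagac
Nppa: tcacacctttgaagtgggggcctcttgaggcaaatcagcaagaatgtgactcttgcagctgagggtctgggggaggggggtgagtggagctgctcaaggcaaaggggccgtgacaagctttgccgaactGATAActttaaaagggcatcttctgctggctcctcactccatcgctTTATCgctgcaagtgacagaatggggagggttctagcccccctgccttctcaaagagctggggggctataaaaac
Ankrd1: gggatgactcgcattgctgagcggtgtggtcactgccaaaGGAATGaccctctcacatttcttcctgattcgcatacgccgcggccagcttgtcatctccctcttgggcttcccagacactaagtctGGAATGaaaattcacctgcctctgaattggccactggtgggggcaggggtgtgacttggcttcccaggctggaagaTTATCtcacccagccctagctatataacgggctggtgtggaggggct
Acta1: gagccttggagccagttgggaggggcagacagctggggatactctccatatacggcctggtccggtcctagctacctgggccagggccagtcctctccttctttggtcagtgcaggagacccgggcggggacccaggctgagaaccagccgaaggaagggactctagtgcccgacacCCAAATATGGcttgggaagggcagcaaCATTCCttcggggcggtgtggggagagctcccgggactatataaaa
Nppb and Nppa had 2 GATA motifs each, Ankrd1 had 1 and Acta1 had 0. The M-CAT motif was found 1 time in the window of Nppb, 2 times in that of Ankrd1 and 1 time in that of Acta1, and 0 times in that of Nppa. A CArG box was found in the window of Acta1 alone among the 4, beginning 73 bases before the start. Of the 32851 promoter windows of the same length in the RefSeq table, 22.6% held a GATA motif, 12.6% an M-CAT motif and 1.47% a CArG box. These matches describe the letters of the windows, and binding was not measured.

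In total 28146691 UMIs were counted over the 9935 Sham barcodes, and 29108986 over the 9932 TAC barcodes. Both libraries shared 32 barcode sequences, of which 2 belonged to positive Sham cells and 0 to positive TAC cells. Mitochondrial genes made up a median of 0.179% of the UMIs of positive Sham cells and 0.0990% of those of positive TAC cells, and the nuclear RNA Malat1 made up 11.5% and 16.7%. These shares were near those of the cardiomyocytes without the peptides that were matched to them, which had medians of 0.208% and 0.109% for mitochondrial genes and 11.8% and 16.4% for Malat1. Genes of ribosomal proteins made up 0.178% of all UMIs of positive Sham cells and 0.193% of those of positive TAC cells. Whether the barcodes held whole cells or nuclei was not tested. Scrublet called 6 positive Sham cells (4.20%) and 7 positive TAC cells (8.75%) doublets. Among cardiomyocytes with 0 peptide UMIs these shares were 5.80% and 6.41%.

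In the Sham library 143 of 2581 cardiomyocytes were peptide positive, or 5.54% (95% Clopper-Pearson interval 4.69 to 6.49). In the TAC library there were 80 of 2487, or 3.22% (2.56 to 3.99), so the TAC share was 0.581 times the Sham share (0.436 to 0.769). This order is the opposite of what pressure overload is known for, and it holds also for the libraries as a whole, with 311 Nppa and 632 Nppb UMIs in the Sham library and 221 and 460 in the TAC library. The libraries are therefore named by their labels, and the operation and the library cannot be told apart. Whether the labels were exchanged was not tested, and an exchange would turn the direction of every difference between TAC and Sham given here. Because a limit of 2 UMIs is passed more easily by a deep cell, all cardiomyocytes were also thinned to a fixed depth. At 5000 UMIs, which left out 1411 Sham and 1238 TAC cells, 4.62% (3.49 to 5.98) of Sham and 3.28% (2.37 to 4.43) of TAC cardiomyocytes were positive, a ratio of 0.711 (0.462 to 1.09). At 2000 UMIs, which left out 228 and 124 cells, the shares were 1.61% (1.15 to 2.21) and 0.804% (0.485 to 1.25), and at 1000 UMIs they were 0.628% and 0.484%. The TAC share was the lower at each depth, while the interval of the ratio held 1 at 5000 UMIs and at 1000 UMIs.

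Summed RNA of both peptides was higher in cardiomyocytes than in the marker barcodes of other cell types. Cardiomyocytes held 79.5% of the Nppa and Nppb UMIs of the Sham library and 73.4% of those of the TAC library. They also held much of all RNA. Cardiomyocytes with 0 peptide UMIs alone had 11591846 of 28146691 UMIs in Sham and 12461612 of 29108986 in TAC. When all barcodes were thinned to 1000 UMIs, 4.75% (3.96 to 5.65) of Sham cardiomyocytes kept at least 1 peptide UMI, compared with 0.846% (0.275 to 1.96) of fibroblast marker barcodes, 1.44% (0.809 to 2.37) of macrophage marker barcodes and 1.57% (0.860 to 2.62) of endothelial marker barcodes. The same shares in the TAC library were 2.54% (1.96 to 3.24), 0.153% (0.00387 to 0.848), 1.14% (0.607 to 1.94) and 0.723% (0.331 to 1.37). Before thinning the median depth was 4598 UMIs in Sham cardiomyocytes and 3135 in fibroblast marker barcodes, with 15.2% and 2.35% of them holding a peptide UMI. In the TAC library these medians were 5017 and 2901 UMIs and the shares 7.84% and 1.37%. Per 1000000 UMIs, also before thinning, Sham cardiomyocytes held 53.3 peptide UMIs. Fibroblast, macrophage and endothelial marker barcodes of that library held 6.96, 17.1 and 14.8. In the TAC library cardiomyocytes held 36.2, and the same marker barcodes 4.39, 18.8 and 11.0. The thinned share and this level in cardiomyocytes thus lay above those in the other cell types in both libraries.

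Most positive cells held few peptide UMIs and a small number held many. Exactly 2 UMIs were found in 68 Sham and 35 TAC cells, exactly 3 in 27 and 18 cells, and at least 10 in 8 and 9 cells. The highest cell had 12 peptide UMIs in the Sham library and 32 in the TAC library. Just outside the rule lay the cardiomyocytes with 1 peptide UMI, 250 in Sham and 115 in TAC. Per 1000000 UMIs of the cell, peptide levels in positive cells ran from 87.2 to 3055.8 with a median of 448 in the Sham library, and from 109 to 2824.2 with a median of 392 in the TAC library.

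The positive cells held 188 Nppa and 312 Nppb UMIs in the Sham library and 135 and 250 in the TAC library. Nppb alone was detected in 62.2% (53.8 to 70.2) of positive Sham cells and 68.8% (57.4 to 78.7) of positive TAC cells. Nppa alone was detected in 11.2% (6.53 to 17.5) and 7.5% (2.80 to 15.6), and both peptides in 26.6% (19.5 to 34.6) and 23.8% (14.9 to 34.6). The intervals of these 3 shares overlapped between the libraries. Whether the peptides met in the same cells was read over all cardiomyocytes thinned to 5000 UMIs. Nppb was then found in 13 of 40 Sham cells with Nppa, or 32.5% (18.6 to 49.1), and in 11.8% (9.95 to 13.8) of the 1130 cells without it. In the TAC library it was found in 12 of 22 cells with Nppa, or 54.5% (32.2 to 75.6), and in 7.01% (5.64 to 8.58) of the 1227 cells without it.

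**Figure D1:**
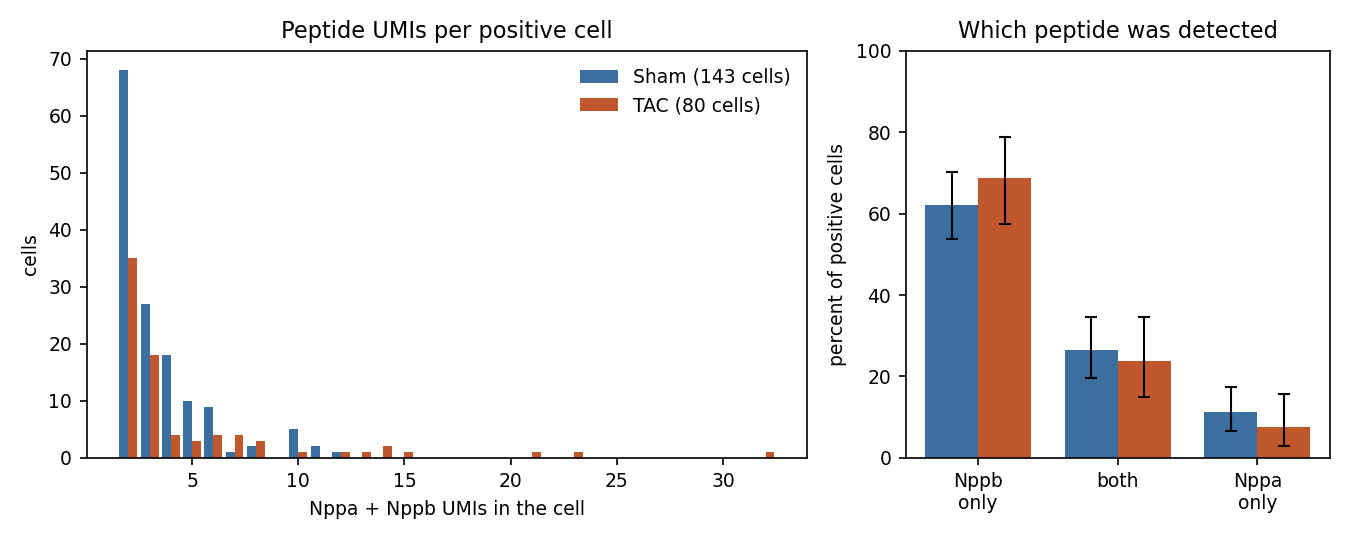
Left, number of positive cardiomyocytes (y axis) by their summed Nppa and Nppb UMIs (x axis) in the Sham (143 cells) and TAC (80 cells) libraries. Right, percent of positive cells with Nppb only, both peptides or Nppa only, with 95% Clopper-Pearson intervals as error bars. Nppb alone is the most frequent state, at 62.2% and 68.8%, and TAC has the single cell with 32 UMIs.

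Since the positive cells were deeper than the other cardiomyocytes, with median depths of 6764 (Sham) and 7613 (TAC) where cells with 0 peptide UMIs had 4501.5 and 4916, each was matched to 1 cardiomyocyte of its library with 0 peptide UMIs and nearly the same total. Every positive cell found a match, and the matched cells had medians of 6770 and 7605 UMIs. Levels below are UMIs per 1000000 UMIs summed over the 143 or 80 cells of a set, and a ratio is the level in positive cells over that in matched cells, with an exact conditional 95% interval. Among genes with at least 30 UMIs in both sets together, 132 of 6888 (1.92%) had a ratio of at least 2 in the Sham library and 121 (1.76%) a ratio of at most 0.5. In the TAC library these were 202 (3.85%) and 130 (2.48%) of 5251 genes.

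The positive cells carried ventricular rather than atrial RNA. The atrial light chains and sarcolipin, Myl7, Myl4 and Sln, were at 0 UMIs in 138 of 143 positive Sham cells and 78 of 80 positive TAC cells, and 139 of 143 and 74 of 80 matched cells were also at 0. A single positive TAC cell held 14 UMIs of the 3 genes, the highest value among the cardiomyocytes of either library. Bmp10, a growth factor of the atrium, had 0 UMIs in both whole libraries. Myl2, the ventricular light chain, was detected in 139 of 143 positive Sham cells and 73 of 80 positive TAC cells. Myl2 levels were 833 in positive and 779 in matched Sham cells (ratio 1.07, 0.971 to 1.18), and 756 and 742 in TAC cells (1.02, 0.896 to 1.16). The ventricular list as a whole had ratios of 1.08 (1.05 to 1.11) in Sham and 0.975 (0.944 to 1.01) in TAC. Fhl2 held 7521 of its 10399 UMIs in positive Sham cells and 5082 of 7220 in TAC, so these sums rest largely on it. The median ratios of this list were 0.938 and 0.968, with 3 of 7 genes above 1 in each library. The atrial list had ratios of 0.955 (0.884 to 1.03) and 0.873 (0.795 to 0.959). The atrial sum came mostly from Pam, Kcnj3 and Kcnk3, which ventricular cells also express.

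Of the 13 gene lists, stress and hypertrophy genes had the highest summed ratio in both libraries. The immediate-early list came next, at 1.51 (1.13 to 2.04) in Sham and 2.28 (1.55 to 3.41) in TAC. These wide intervals hold the ratios of the stress list. The stress list of 18 genes, without the peptides, had a summed level of 5472.5 in positive and 2953.9 in matched Sham cells (ratio 1.85, 1.77 to 1.94). In TAC cells the levels were 6305.9 and 2574.9 (2.45, 2.31 to 2.60). Of the 16 genes with enough UMIs, 5 had a ratio of at least 2 in Sham and 11 in TAC, compared with 1.92% and 3.85% of all genes. The median ratio of the list was 1.58 in Sham and 2.45 in TAC, and that of all genes was 1.0 and 0.999. With Ankrd1 left out, the summed ratios were 1.63 (1.56 to 1.71) and 1.83 (1.72 to 1.95).

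Ankrd1 encodes a cardiac ankyrin repeat protein of the sarcomere and nucleus that is induced by stretch (chr19:36111961-36120099, minus strand, GRCm38). Its level was 959 in positive and 192 in matched Sham cells, a ratio of 4.99 (4.29 to 5.84). In TAC cells it was 1801.2 and 116, a ratio of 15.5 (12.2 to 19.9). At least 1 Ankrd1 UMI was seen in 97 of 143 positive and 44 of 143 matched Sham cells, and in 62 of 80 and 18 of 80 TAC cells. The size of the TAC ratio depended on the comparison cells, since 29 of the 74 Ankrd1 UMIs of the matched cells sat in 1 cell, and it was 25.2 without that cell. With 5 matched cells per positive cell the ratios were 4.12 in Sham and 10.4 in TAC. They were 3.94 and 8.77 against all cells at 0 without matching, and the TAC ratio was 4.93 when Ryr2 and Myh6 had to make up 2% of the UMIs. Ankrd1 was higher in positive cells under each of these settings.

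Acta1, the skeletal muscle actin that the fetal heart expresses (chr8:123891769-123894751, minus strand, GRCm38), was found in 33 positive and 14 matched Sham cells. Its level was 98.4 in positive and 19.1 in matched Sham cells (ratio 5.15, 3.17 to 8.78). In TAC cells it was 83.2 and 6.28 (13.2, 4.87 to 50.3), where the matched cells held only 4 UMIs. Against 5 matched cells the ratios were 4.54 and 9.45.

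Of the genes of this list with enough UMIs, 15 of 16 in Sham and 16 of 16 in TAC had a ratio above 1, most of them smaller than those of Ankrd1 and Acta1. Ankrd23, a titin-binding relative of Ankrd1, had levels of 259 in positive and 107 in matched Sham cells (ratio 2.42, 1.93 to 3.04), and of 218 and 67.6 in TAC cells (3.23, 2.28 to 4.66). Flnc, which encodes the actin crosslinker filamin C, had ratios of 2.03 (1.64 to 2.52) and 2.66 (1.94 to 3.71), although 41 of its 268 UMIs in positive Sham cells came from 1 cell. Csrp3, the muscle LIM protein of the Z-disc, had ratios of 1.52 (1.33 to 1.74) and 2.11 (1.77 to 2.52). Xirp2, an actin-binding protein of cell junctions, had ratios of 1.42 (1.30 to 1.55) and 1.76 (1.55 to 2.0), and Enah, which extends actin filaments, 1.7 (1.47 to 1.96) and 2.25 (1.87 to 2.73). Des, the intermediate filament desmin, had ratios of 1.25 (1.03 to 1.52) and 1.69 (1.27 to 2.27). The intervals of these 6 genes left out 1 in both libraries. Those of Xirp1, a relative of Xirp2, and of Fhl1, a LIM protein, left it out in 1 library each. Xirp1 had ratios of 1.57 (1.09 to 2.27) and 1.38 (0.833 to 2.30), the latter 0.882 without the positive cell that held most, and Fhl1 1.31 (0.919 to 1.88) and 2.48 (1.59 to 3.96).

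Among the signalling genes of the list, Tgfb2, a secreted growth factor, had levels of 59.2 in positive and 25.8 in matched Sham cells (ratio 2.30, 1.44 to 3.75), and of 107 and 44.0 in TAC cells (2.43, 1.54 to 3.91). Rcan1, an inhibitor and target of calcineurin, had ratios of 1.59 (1.19 to 2.14) and 1.61 (1.11 to 2.35). The matricellular gene Ccn1 had ratios of 1.58 (0.988 to 2.56) and 3.36 (1.68 to 7.30), so its interval held 1 in Sham. Tnfrsf12a, the receptor of the cytokine TWEAK, had ratios of 1.56 (0.830 to 2.99) and 3.28 (1.36 to 9.06), and its Sham interval also held 1. Lmcd1, a LIM protein known to promote hypertrophy, stood on opposite sides in the libraries, with levels of 21.0 in positive and 42.0 in matched Sham cells (ratio 0.50, 0.285 to 0.852) and 81.6 and 29.8 in TAC cells (2.73, 1.59 to 4.90). Against 5 matched cells its Sham ratio was 0.689 (0.409 to 1.10), an interval that held 1, and its TAC ratio 2.36 (1.66 to 3.31).

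Myh7, the slow myosin heavy chain of the fetal ventricle, was less distinct than the actin. Its level was 1034.3 in positive and 560 in matched Sham cells (ratio 1.85, 1.67 to 2.05), with 108 of 1083 UMIs in 1 cell, and 904 and 746 in TAC cells (1.21, 1.07 to 1.37). Opposite-strand transcripts, among them Mhrt, overlap Myh7 in the annotation, and the sources used here do not state whether counting used the strand.

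**Figure D2:**
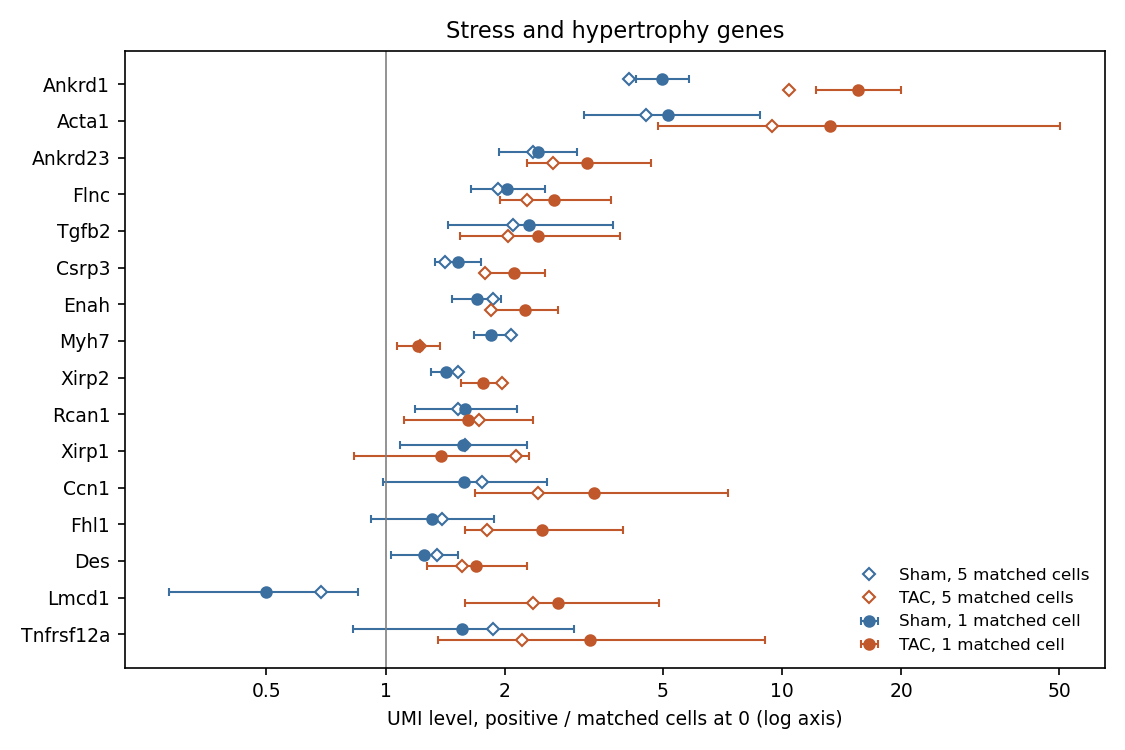
Ratio of the UMI level in positive cardiomyocytes to that in depth-matched cardiomyocytes with 0 peptide UMIs (log x axis) for 16 stress and hypertrophy genes. Filled circles use 1 matched cell per positive cell, with exact 95% intervals, and open diamonds use 5. Ankrd1 (4.99 and 15.5) and Acta1 (5.15 and 13.2) lie farthest right in both libraries, and Lmcd1 lies below 1 in Sham, at 0.50.

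The difference was spread over many cells rather than held by a few. Per 10000 UMIs of a cell, the summed stress level ran from 10.5 to 261 with a median of 48.4 in positive Sham cells, and from 0 to 104 with a median of 27.0 in matched cells. Among TAC cells it ran from 16.4 to 274 with a median of 46.3 in positive cells, and from 10.8 to 74.0 with a median of 24.9 in matched cells. The groups overlapped, but 68 of 143 positive Sham cells (47.6%, 39.1 to 56.1) and 57 of 80 positive TAC cells (71.2%, 60.0 to 80.8) lay above the 90th percentile of their matched cells.

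**Figure D3:**
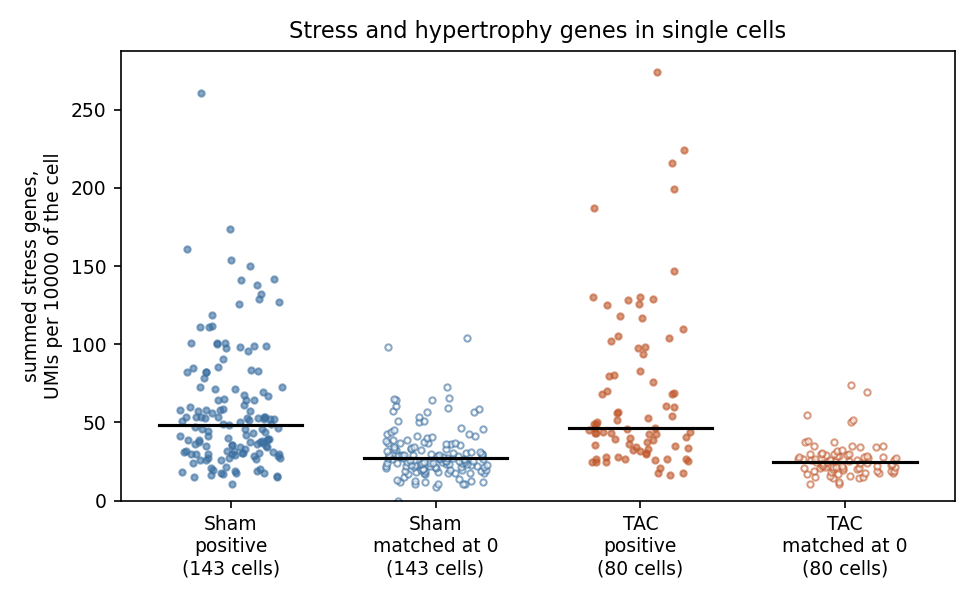
Summed UMIs of the stress and hypertrophy genes per 10000 UMIs of the cell (y axis) in each positive cell (filled) and each matched cell with 0 peptide UMIs (open), with the median as a black line. Medians are 48.4 and 27.0 in Sham and 46.3 and 24.9 in TAC, and the positive cells reach 261 and 274.

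The stress genes were also read against the number of peptide UMIs in the cell, with each class matched on depth to its own cells at 0. Cardiomyocytes with 1 peptide UMI, which the rule leaves out, already had Ankrd1 levels of 484 in Sham and 903 in TAC, against 247 and 164 in their matched cells. In the Sham library the Ankrd1 level was 614 in cells with 2 peptide UMIs, 1219.1 in those with 3 to 4 and 1288.1 in those with 5 or more. In TAC cells it was 901, 1500.2 and 3223.9. The matched cells stayed between 162 and 247 in Sham and between 37.8 and 225 in TAC, and the Ankrd1 ratios over the 4 classes were 1.96, 2.90, 7.52 and 6.77 in Sham and 5.52, 23.9, 6.66 and 25.2 in TAC. The ratios thus did not follow the order of the classes as the levels did in Sham, and the TAC ratio of 23.9 rests on 10 UMIs in the matched cells. The other stress genes together had ratios of 1.25, 1.48, 1.80 and 1.69 over the 4 classes in Sham and of 1.27, 1.55, 1.54 and 2.41 in TAC. The class with 5 or more UMIs held only 30 Sham and 23 TAC cells, and single genes did not all follow the same order. In that class Myh7 had ratios of 3.16 (2.59 to 3.89) in Sham and 0.953 (0.757 to 1.20) in TAC, and Xirp2 of 0.919 (0.756 to 1.12) in Sham and 2.51 (2.05 to 3.09) in TAC. From 2 UMIs upward the Sham ratios were 2.82, 2.77 and 1.74 for Ankrd23 and 1.68, 2.76 and 1.66 for Flnc.

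**Figure D4:**
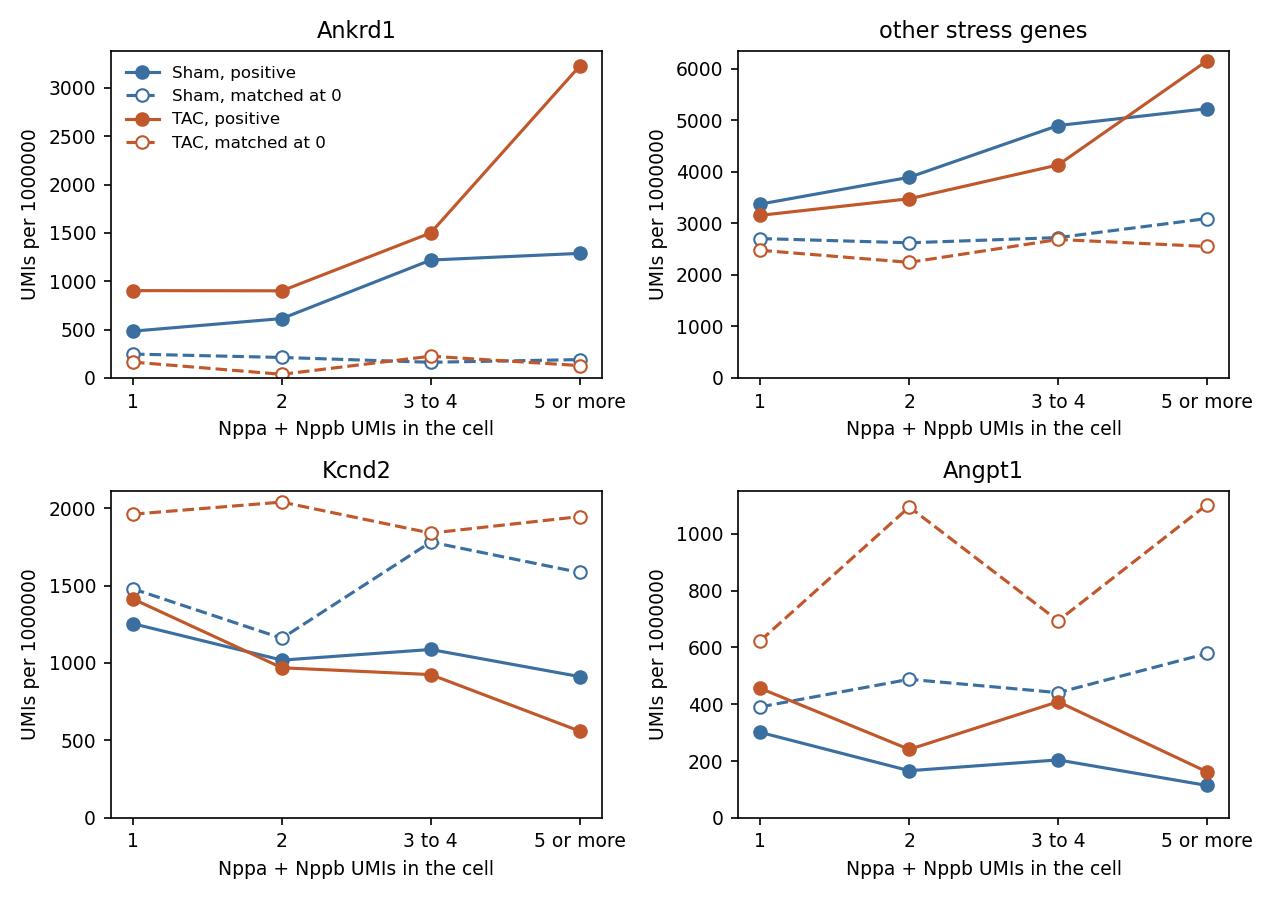
UMIs per 1000000 (y axes) of Ankrd1, the other stress genes summed, Kcnd2 and Angpt1 in cardiomyocytes with 1, 2, 3 to 4 and 5 or more Nppa and Nppb UMIs (x axes, filled circles and solid lines), and in depth-matched cells with 0 peptide UMIs (open circles and dashed lines). Ankrd1 goes from 484 to 1288.1 in Sham and from 903 to 3223.9 in TAC, and Kcnd2 from 1253.7 to 912 and from 1413.3 to 560.

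Cells with both peptides had the highest Ankrd1 levels of the 3 kinds of positive cell. They reached 1383.5 in Sham and 3653.4 in TAC, compared with 864 and 1330.1 in cells with Nppb alone and 411 and 319 in cells with Nppa alone. Cells with both also held more peptide UMIs, with medians of 4.50 in Sham and 8.00 in TAC against 2.0 in cells with Nppb alone in either library. Nppa alone was found in only 16 Sham and 6 TAC cells, so its levels rest on few cells.

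Kcnd2, Kcnj3 and the vascular ligand Angpt1 were lower in the positive cells of both libraries. The list of ion channels of the action potential had a summed ratio of 0.852 (0.812 to 0.893) in Sham and 0.727 (0.683 to 0.772) in TAC, with 0 of 11 and 1 of 10 genes at a ratio of at most 0.5, compared with 1.76% and 2.48% of all genes. The median ratio of the list was 0.922 and 0.927. Without Kcnd2 the summed ratios were 0.946 (0.891 to 1.0) and 1.03 (0.954 to 1.12), so the list lay below 1 mainly through this gene. Kcnd2, the pore of the transient outward potassium channel (chr6:21215503-21729805, plus strand, GRCm38), had a level of 1016.2 in positive and 1430.2 in matched Sham cells (ratio 0.711, 0.656 to 0.769), and 827 and 1955.9 in TAC cells (0.423, 0.381 to 0.468). Kcnd3, which encodes a related pore, had ratios of 0.827 (0.730 to 0.937) and 0.908 (0.759 to 1.09). Abcc9 and Kcnq1, a subunit of the ATP-sensitive channel and the slow delayed rectifier, had Sham ratios of 0.626 (0.520 to 0.753) and 0.770 (0.645 to 0.918), and TAC ratios of 1.17 (0.947 to 1.44) and 1.04 (0.859 to 1.26). Kcnj3, a subunit of the acetylcholine-gated potassium channel from the atrial list, had ratios of 0.630 (0.549 to 0.724) and 0.490 (0.415 to 0.578).

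Angpt1, the ligand of the endothelial receptor Tie2 (chr15:42424723-42676977, minus strand, GRCm38), was the lowest of the 5141 genes tested in both libraries when ranked by its larger ratio. Its level was 166 in positive and 489 in matched Sham cells (ratio 0.340, 0.284 to 0.404), and 260 and 991 in TAC cells (0.263, 0.220 to 0.312). It was detected in 56 of 143 positive and 83 of 143 matched Sham cells, and in 41 and 55 of 80 TAC cells. A single matched cell held 62 of 512 Angpt1 UMIs in Sham and another 107 of 631 in TAC, and without these the ratios were 0.379 and 0.310. For both Kcnd2 and Angpt1 the ratio was lowest in the cells with the most peptide, but it did not fall in the order of the classes throughout. From 1 UMI upward the Angpt1 ratios were 0.770, 0.339, 0.463 and 0.197 in Sham and 0.731, 0.220, 0.590 and 0.147 in TAC. Those of Kcnd2 were 0.848, 0.878, 0.610 and 0.576 in Sham and 0.721, 0.475, 0.503 and 0.288 in TAC. In cells with 5 or more peptide UMIs the Kcnd2 ratio was 0.576 (0.485 to 0.682) in Sham and 0.288 (0.232 to 0.356) in TAC, and the Angpt1 ratio 0.197 (0.125 to 0.299) and 0.147 (0.0988 to 0.213).

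Of the other genes of the peptides' own pathway with enough UMIs, 5 of 6 in Sham and 4 of 5 in TAC lay below 1. Their median ratios were 0.883 and 0.884, and the 1 gene above was Prkg1 in both. The 14 genes outside the rule had a summed ratio of 0.968 (0.923 to 1.02) in Sham and 1.05 (0.989 to 1.12) in TAC. Prkg1 held 1594 of their 3385 UMIs in positive Sham cells and 1106 of 2000 in TAC, so these sums rest largely on it. Past 2-fold in either direction were 0 of 6 and 0 of 5 genes. Over all genes 1.92% were up and 1.76% down in Sham, and 3.85% and 2.48% in TAC. Corin, the protease that activates the Nppa precursor, had levels of 831 in positive and 1044.2 in matched Sham cells (ratio 0.796, 0.727 to 0.871) and of 686 and 976 in TAC cells (0.703, 0.620 to 0.796). Pde3a, a phosphodiesterase that cyclic GMP inhibits, had ratios of 0.781 (0.706 to 0.863) and 0.643 (0.558 to 0.740). Prkg1, the cyclic GMP-dependent kinase, had levels of 1522.4 in positive and 1200.9 in matched Sham cells (1.27, 1.18 to 1.37) and of 1735.3 and 999 in TAC cells (1.74, 1.57 to 1.92). Npr2, the receptor of C-type natriuretic peptide, had ratios of 0.941 (0.621 to 1.42) and 0.884 (0.482 to 1.61). Pam, an enzyme that amidates peptides and sits in the membrane of the atrial granules, had ratios of 1.35 (1.19 to 1.52) and 1.44 (1.24 to 1.67), and carried the secretory granule list, whose ratios were 1.28 (1.15 to 1.43) and 1.37 (1.20 to 1.57).

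Contractile and calcium handling genes stayed near the level of the matched cells. The sarcomere list had a ratio of 1.09 (1.07 to 1.10) in Sham, or 1.03 (1.01 to 1.05) without Ttn, and of 0.998 (0.981 to 1.02) in TAC. Actc1, the cardiac actin, had ratios of 1.32 (1.11 to 1.57) and 2.23 (1.89 to 2.63), with 89 of its 468 UMIs in positive TAC cells from 1 cell and a TAC ratio of 1.85 without it. Tnnc1, the calcium-binding troponin, had ratios of 1.14 (1.02 to 1.28) and 1.81 (1.60 to 2.06), and Tpm1, a tropomyosin, 1.29 (1.18 to 1.42) and 1.40 (1.27 to 1.54). The calcium handling list had ratios of 1.02 (1.01 to 1.04) and 0.997 (0.977 to 1.02). Atp2a2, the calcium pump of the sarcoplasmic reticulum, had ratios of 0.840 (0.791 to 0.891) and 0.913 (0.851 to 0.979), and Slc8a1, the sodium-calcium exchanger, 1.09 (1.05 to 1.13) and 1.16 (1.12 to 1.21). The genes of the cell rule were a little lower in positive cells, with levels of 12856.1 against 14466.8 for Ryr2 and of 12089.2 against 13145.5 for Myh6 in Sham. In TAC they were 12641.7 against 15651.9 and 9837.8 against 11262.5.

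The fatty acid oxidation list had a summed ratio of 0.895 (0.864 to 0.927) in Sham and 0.823 (0.783 to 0.864) in TAC, with 0 of 16 and 1 of 15 genes at a ratio of at most 0.5, compared with 1.76% and 2.48% of all genes. Its genes lay on both sides, with 6 of 16 in Sham and 5 of 15 in TAC above 1 and median ratios of 0.949 and 0.873. Slc27a1, a fatty acid transporter, had levels of 345 in positive and 540 in matched Sham cells (0.639, 0.558 to 0.730) and of 158 and 341 in TAC cells (0.465, 0.363 to 0.591). Lpl, the lipase that frees fatty acids from lipoproteins, had ratios of 0.691 (0.617 to 0.774) and 0.783 (0.676 to 0.905). Ppara, the nuclear receptor of this programme, had ratios of 1.07 (0.950 to 1.20) in Sham and 0.674 (0.568 to 0.797) in TAC. The glucose use list had ratios of 1.07 (0.997 to 1.15) and 1.06 (0.961 to 1.17), and within it Pfkp, a phosphofructokinase, had 1.71 (1.30 to 2.27) and 2.91 (1.79 to 4.90), or 1.55 and 1.68 against 5 matched cells.

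Cardiac transcription factors lay a little below the matched cells as a summed list, with 5 of 13 genes above 1 in each library. Their list had ratios of 0.962 (0.927 to 0.999) in Sham and 0.911 (0.870 to 0.954) in TAC. Past 2-fold in either direction were 0 of 13 genes in both libraries, which is near the share over all genes. Of all genes, 1.92% had a ratio of at least 2 and 1.76% of at most 0.5 in Sham. In TAC these were 3.85% and 2.48%. Gata4, which binds GATA motifs, had ratios of 0.922 (0.792 to 1.07) and 1.03 (0.849 to 1.24), and Tead1, which binds the M-CAT motif, 0.959 (0.865 to 1.06) and 0.953 (0.821 to 1.11). Mef2a, a muscle transcription factor, was lower in both, with ratios of 0.772 (0.670 to 0.888) and 0.801 (0.671 to 0.956). Nr3c2, the mineralocorticoid receptor, had ratios of 0.799 (0.708 to 0.902) and 0.844 (0.721 to 0.987). Myocd, a cofactor of SRF, had ratios of 1.10 (1.02 to 1.20) and 0.760 (0.690 to 0.837). The immediate-early list had ratios of 1.51 (1.13 to 2.04) and 2.28 (1.55 to 3.41) on 118 and 89 UMIs, and in it the AP-1 subunit Jun had ratios of 1.64 (1.03 to 2.66) and 3.99 (1.71 to 10.8). The list of conduction system genes had 68 and 62 UMIs in positive cells, with ratios of 0.723 (0.521 to 0.999) and 0.784 (0.553 to 1.11).

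**Figure D5:**
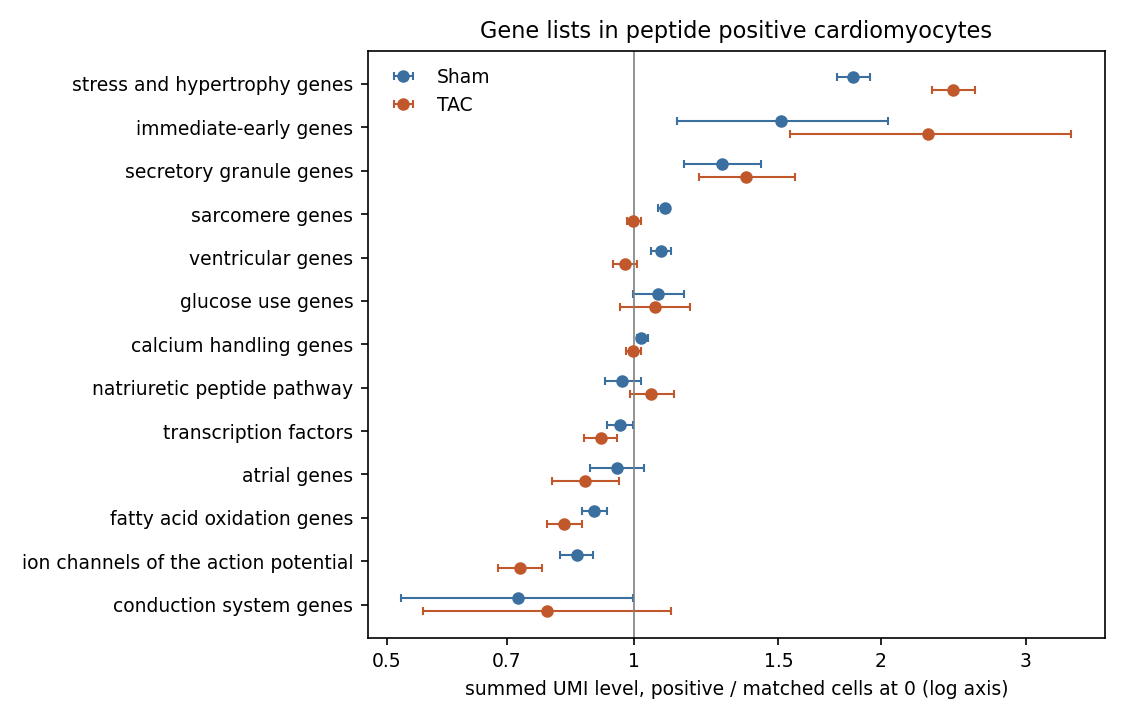
Ratio of the summed UMI level in positive cardiomyocytes to that in matched cardiomyocytes with 0 peptide UMIs (log x axis) for 13 gene lists, with exact 95% intervals. Stress and hypertrophy genes have the highest ratios (1.85 in Sham, 2.45 in TAC). Ion channels (0.852 and 0.727, or 0.946 and 1.03 without Kcnd2) and fatty acid oxidation genes (0.895 and 0.823) lie below 1 in both libraries. So do conduction system genes (0.723 and 0.784), atrial genes (0.955 and 0.873) and transcription factors (0.962 and 0.911).

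Markers of other cell types were low in the positive cells. Fibroblast markers outside the rule had summed levels of 55.4 in positive and 56.4 in matched Sham cells and of 95.7 and 81.7 in TAC cells, and macrophage markers outside the rule 1.91 and 5.73, and 17.3 and 12.6. Endothelial markers had ratios of 1.37 in Sham and 1.23 in TAC, which came from Cdh13, a cadherin that was detected in 131 of 143 matched Sham cells and 79 of 80 matched TAC cells as well, and were 0.835 (0.585 to 1.19) and 0.758 (0.542 to 1.06) without it. Pericyte markers had levels of 32.5 in positive and 63.1 in matched Sham cells and of 102 and 69.1 in TAC cells. Smooth muscle markers had 17.2 and 6.69 in Sham and 18.8 and 3.14 in TAC, on at most 18 UMIs. These levels were higher in positive cells, with ratios of 2.57 (1.02 to 7.28) and 5.99 (1.33 to 55.1), but the matched cells held only 7 and 2 UMIs. Endocardial markers had levels of 43.0 and 42.0 in Sham and of 43.9 and 18.9 in TAC, with a TAC ratio of 2.33 (1.15 to 5.03). Among them, Npr3 held 14 UMIs in positive and 7 in matched Sham cells, and 10 and 1 in TAC cells. Cytl1 and Hapln1 were at 0 UMIs in positive and matched cells of both libraries. The part of these low levels in the gene ratios was not tested.

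Over all genes, ranked by the smaller of their ratios, Acta1 and Ankrd1 were the 2 highest of the 5141 genes tested in both libraries. A ratio of at least 2 in both libraries was found for 23 genes (0.447%) and one of at most 0.5 in both for 11 (0.214%). Since these genes were chosen by their ratios, the values are a description. Ppm1e, a protein phosphatase, had levels of 342 in positive and 107 in matched Sham cells (ratio 3.20, 2.58 to 3.99) and of 435 and 88.0 in TAC cells (4.94, 3.70 to 6.71). Scube2, a secreted and membrane-bound protein known from Hedgehog release, had ratios of 2.96 (2.11 to 4.21) and 5.53 (3.04 to 10.9). Bcl2, which protects cells from apoptosis, had ratios of 4.47 (2.52 to 8.42) and 4.71 (2.05 to 12.6), and Slc24a2, a potassium-dependent sodium-calcium exchanger, 3.67 (2.15 to 6.56) and 3.99 (1.80 to 10.0). Osmr, the receptor of the cytokine oncostatin M, had ratios of 2.85 (1.48 to 5.83) and 2.84 (1.48 to 5.83). The other high genes were the non-coding Gm41505 and Gm47760 and the protein-coding 1500009L16Rik, with ratios from 2.59 to 4.89 in Sham and from 4.16 to 6.99 in TAC. Over the alternatives of processing, the ratio ran from 3.07 to 36.0 for Bcl2 and from 1.67 to 5.50 for Gm41505 in Sham, and from 1.87 to 9.28 for 1500009L16Rik and from 2.60 to 11.2 for Ppm1e in TAC. Gm41505 is annotated on the strand opposite to Kcnj6, so its reads may not be its own.

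Below Angpt1, the lowest genes were Ccnh, Pdzrn4, Tmx1, Ripor2, Pgap4, Gm43597, Fam76a, Apex2 and N4bp2, with ratios from 0.419 to 0.50 in Sham and from 0.279 to 0.481 in TAC. Pdzrn4, a PDZ and RING domain protein, had levels of 118 in positive and 260 in matched Sham cells (0.456, 0.366 to 0.566) and of 95.7 and 342 in TAC cells (0.279, 0.207 to 0.373). Ripor2, an inhibitor of the GTPase RhoA, had ratios of 0.474 (0.361 to 0.619) and 0.454 (0.295 to 0.685). Several of the others rest on few UMIs, and against 5 matched cells the ratio of Ccnh, a cyclin, was 0.714 in Sham in place of 0.454. Apex2, a DNA repair nuclease, overlaps Alas2 and Pfkfb1 on the opposite strand.

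The largest differences between the libraries in positive cells are given beside those in matched cells. Among 4504 genes with enough UMIs, the highest TAC to Sham ratios in positive cells were those of Slc16a4, Gm26749, Gm15261, Erich3 and Gm36975, from 3.92 to 6.43, and the same 5 genes had ratios from 2.77 to 7.40 in matched cells. Ptgds, a prostaglandin D2 synthase, had a level of 84.7 in positive TAC and 525 in positive Sham cells, a TAC to Sham ratio of 0.161 (0.120 to 0.214), and one of 0.0998 (0.0638 to 0.149) in matched cells. Fkbp5, a target of the glucocorticoid receptor, had ratios of 0.197 (0.128 to 0.293) and 0.219 (0.134 to 0.343). Herpud1, a gene of the unfolded protein response, had a ratio of 0.254 (0.152 to 0.403) in positive and 0.648 (0.478 to 0.868) in matched cells. Baiap2 and Pla2g12a, with 4 and 7 UMIs in positive TAC cells, had ratios of 0.137 and 0.245 in positive and of 0.514 and 0.779 in matched cells. Ankrd1 was higher in the TAC than in the Sham positive cells (1.88, 1.72 to 2.05) and lower in the TAC than in the Sham matched cells (0.605, 0.457 to 0.794). Acta1 had a TAC to Sham ratio of 0.845 (0.595 to 1.19) in positive cells, and Nppb, which chose the cells, one of 1.32 (1.11 to 1.56).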

How the data were processed

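The values are UMI counts per gene and barcode, which the authors made with Cell Ranger and deposited as 1 filtered matrix per library without normalization (version 7.1.0 in the matrix headers and processing notes). The aligner settings, the genome build and whether intronic reads were counted are not given in the sources used here. The paper and the sample labels name different versions of the 3-prime kit. Of 55357 gene identifiers, 52081 (94.1%) were in GENCODE M21, from which gene positions were taken, and promoter sequences came from RefSeq.

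Counts were read with Python 3.11.15, numpy 2.4.6, scipy 1.17.1 and pandas 2.3.3, and doublets were called with Scrublet in scanpy 1.11.5 at 0.8% per 1000 cells and kept. Figures were drawn with matplotlib 3.10.9. Cells were chosen by the rule stated in the report, and no limit was set on mitochondrial UMIs. Each positive cell was matched within its library, in random order (seed 1) and without reuse, to the cell at 0 nearest in total UMIs, within 10%. Genes needed 30 UMIs in both sets together, and counts under 3 were set to 3 when genes were counted or ranked. Ratios have exact conditional binomial and shares exact Clopper-Pearson 95% intervals. Thinning drew UMIs without replacement in 1 draw. No test was run and no p-value computed, since each group had 1 library. The intervals treat UMIs as independent, so genes with many UMIs in 1 cell vary more than they show. The steps were tested on simulated data.

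The members, the gene lists and the comparisons were chosen with earlier results of these data known. Named genes were those of the lists with at least 30 UMIs in both libraries, markers of other cell types also at 0, the 10 genes highest and the 10 lowest in both libraries, and the 5 genes at either end of the ranking of positive cells by TAC over Sham level among genes with at least 50 UMIs in these cells. Bmp10, Myl7, Myl4 and Sln were named although they fall under this limit, after their values had been seen. The alternatives were leaving out doublets or shared barcodes, at least 500 genes, at most 25% mitochondrial UMIs, a Ryr2 and Myh6 share of 2%, at least 3 or 5 peptide UMIs, no matching, thinning, another random order, levels without mitochondrial or peptide genes, cells without atrial RNA and 100 or 10 UMIs per gene. A Ryr2 and Myh6 share of 0.5%, 5 matched cells, and lists without Ankrd1, without Kcnd2 or without Pam, Kcnj3 and Kcnk3 were added after seeing the data.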

Additional observations from a re-analysis of the deposited data

Results flagged for a closer look

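Among 127 genes of the lists and rankings looked at in both libraries, 3 had intervals on opposite sides of 1 in the Sham and TAC libraries, and the difference itself was not tested. Lmcd1 had a ratio of positive to matched cells of 0.50 in Sham and 2.73 in TAC, but its Sham ratio was 0.689 (0.409 to 1.10) against 5 matched cells, an interval that holds 1. Myocd had ratios of 1.10 and 0.760, but its Sham ratio was 0.960 against 5 matched cells. Cacna1c, the pore of the L-type calcium channel, had ratios of 1.04 and 0.944, but its Sham ratio was 0.924 in cells with at least 5 peptide UMIs.

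Outside the cardiomyocyte rule, 18 Sham and 17 TAC barcodes also held at least 2 Nppa and Nppb UMIs. Of these, 15 and 16 were left out because Ryr2 and Myh6 made up less than 1% of their UMIs. The highest held 9 peptide UMIs in Sham and 32 in TAC, the latter in a barcode with 11414 UMIs. In the 8 Sham and 12 TAC barcodes whose share lay between 0.25% and 1%, Ankrd1 levels were 2400.4 and 2252.0 per 1000000 UMIs.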

How the results depend on the processing

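The share of positive cardiomyocytes, which was 5.54% in Sham and 3.22% in TAC, moved to 2.91% and 1.81% with at least 3 peptide UMIs and to 1.16% and 0.925% with at least 5. After thinning it was 0.628% and 0.484% at 1000 UMIs, 1.61% and 0.804% at 2000, and 4.62% in Sham at 5000. It was 2.49% in TAC with a Ryr2 and Myh6 share of 2%. The stress ratio, 1.85 in Sham and 2.45 in TAC, was 1.69 and 2.09 at that share, 2.06 and 2.76 with at least 3 peptide UMIs, 1.98 and 3.50 with at least 5, 1.63 and 1.83 without Ankrd1, and 2.27 in TAC without matching. It stayed above 1 under all 16 alternatives in both libraries, but not all of these could move it. The limits of 500 genes and of 25% mitochondrial UMIs kept the same positive and matched cells in both libraries. Leaving out shared barcodes kept the same cells in TAC. The atrial ratio, 0.955 in Sham, was 1.04 after thinning to 2000 UMIs.

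Counts of genes past 2-fold depended on the UMIs behind each gene. Ratios of at least 2 were held by 132 Sham and 202 TAC genes, and by 22 and 36 at 100 UMIs per gene, 577 and 783 at 10, 216 and 323 with 5 matched cells, 318 and 781 without matching, 376 and 1773 after thinning, and 119 in TAC with a share of 2%. Ratios of at most 0.5 were held by 121 and 130 genes, and by 13 and 14, 573 and 558, 375 and 407, 402 and 415, and 256 and 276 under the first 5 of these settings. After thinning, few UMIs remained per gene.

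Of 61 genes followed through the alternatives, those whose interval left out 1 gave 13 values on the other side of 1. With at least 3 peptide UMIs the Sham ratios of Cacna1c and Slc8a1 were 0.988 and 0.989. With at least 5, the Sham ratios of Apex2, Cacna1c, Slc8a1 and Xirp2 were 1.42, 0.924, 0.904 and 0.919 and the TAC ratios of Atp2a2 and Myh7 were 1.0 and 0.953. After thinning to 2000 UMIs, Fam76a and Myocd were at 1.07 and 0.976 in Sham and Nr3c2 at 1.13 in TAC. Myocd was at 0.960 in Sham with 5 matched cells, and Cacna1c at 1.04 in TAC with a share of 2%. Genes whose interval held 1 were not counted, such as Fam76a in TAC, at 0.478 and at most 1.29. The cause was not tested. Another random order changed 2 matched Sham cells and 0 TAC cells, so it says little. With 5 matched cells, 4 Sham and 2 TAC positive cells found too few partners and were left out. Sham and TAC could not be compared in pairs because each group has 1 library. The ratios of positive to matched cells are of sums over each set, and their intervals do not use the matched pairs.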
